A study of Mus musculus with 4 samples.

Results

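The 9 genes described here make, modify and release the Sonic hedgehog signal of the limb bud or mark the posterior mesenchyme around its source. They were chosen by name from an expression table of 17568 genes, and all 9 were in it: Shh, Hhat, Disp1, Scube2, Hand2, Osr1, Prdm1, Cntfr and Pkdcc. Levels come from RNA sequencing of forelimbs from wild-type mouse embryos of the Swiss Webster strain, at E10.25 with 31 to 34 somites, held in culture. One group of 2 libraries came from forelimbs cultured with cyclopamine (spelled "cyclopmaine" in the labels), and the other group of 2 from forelimbs cultured in control medium. Cyclopamine is a plant alkaloid that blocks Smoothened, the membrane protein that passes the Hedgehog signal into the cell. The submitters describe the libraries of a group as biological replicates. The labels do not state the dose, how long culture lasted or how many embryos went into a library, so p-values measure only the spread between these libraries.

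SHH is secreted by the zone of polarizing activity, a group of mesenchymal cells at the posterior margin of the limb bud, and it patterns the digits and keeps the bud growing. The protein cuts itself and takes on a cholesterol group, HHAT adds a palmitate, Dispatched (DISP1) exports the lipid-bearing ligand, and secreted SCUBE proteins help to carry it off the membrane. On receiving cells SHH binds Patched receptors, which frees Smoothened and turns on GLI target genes, so cyclopamine acts after the ligand. HAND2, a basic helix-loop-helix transcription factor of the posterior bud, is needed to switch Shh on, and SHH in turn feeds a loop with the apical ectodermal ridge through the BMP antagonist Gremlin 1 and ridge FGFs.

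The libraries held 12962633 and 12010965 gene-assigned reads with cyclopamine, and 9779589 and 13555492 in control. Values are counts per 1000000 reads (CPM), and the floor of detection, 3 reads, lay between 0.22 and 0.31 CPM. The treatment was visible in Hedgehog target genes: Gli1 measured 8.05 and 4.70 CPM with cyclopamine, against 56.2 and 56.7 CPM in control. Gli1 and Ptch1, which encodes a Hedgehog receptor, fell (limma, largest adjusted p = 0.00216). Hhip, another listed target, lay lower too but did not pass (log2 fold change -1.04, limma adjusted p = 0.289). Neural tube and neuron markers also differed between the groups and between the control libraries. Summed over 9 such genes, they reached 8.20 and 10.8 CPM with cyclopamine, against 42.4 and 73.5 CPM in control. Limb mesenchyme markers, such as Prrx1 and Tbx5, summed to between 1589 and 1884 CPM in the 4 libraries, so the labelled tissue was present in each. In these bulk samples, fewer cells of a type and less RNA per cell cannot be told apart.

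None of the 9 genes passed the threshold in the comparison of cyclopamine with control (0 of 9, limma, adjusted p of 0.05 over 13568 genes), where 0.28% of all genes tested did. At an unadjusted p of 0.05, 1 of the 9 passed in limma, Hand2, against 5.82% of all genes. On recovered reads, edgeR's quasi-likelihood test also called 0 of the 9 after adjustment, where it called 0.295% of all genes. In edgeR 2 of the 9, Hand2 and Scube2, had an unadjusted p under 0.05, against 6.02% of all genes. Scube2 met the filter of a mean of 1 CPM only through control 2, so its place in that count rests on that library. Of the 9 genes, 0 have a false discovery rate under 0.05 in the authors' deposited table, against 0.455% of the genes it lists. The log2 fold changes, cyclopamine over control, were below 0 for 7 genes and above 0 for 2, with a median of -0.16. Over all genes tested the median was 0.00, with 6921 above 0 and 6647 below.

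**Figure D1:**
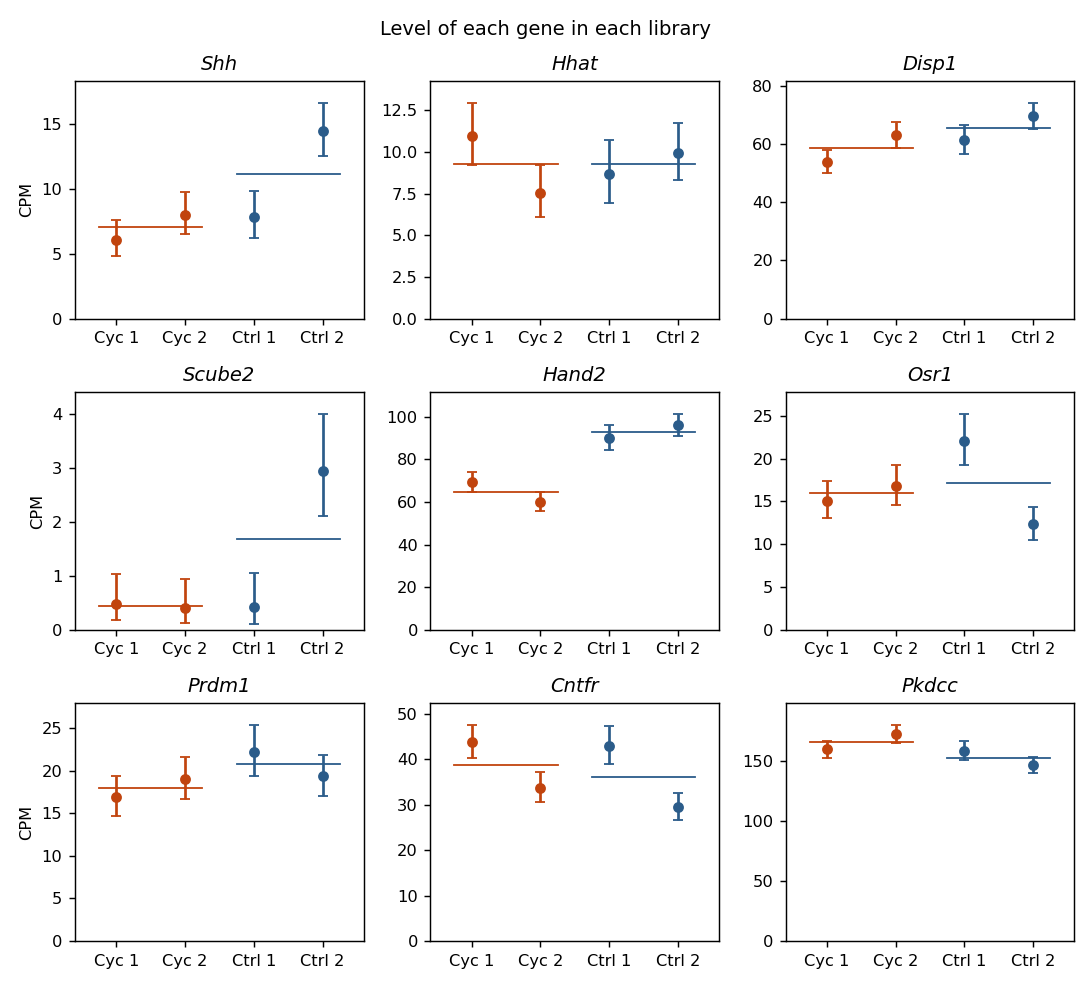
Level of the 9 genes in each library, in CPM, with cyclopamine 1 and 2 at the left and control 1 and 2 at the right of each panel. Points are libraries, error bars are exact 95% Poisson intervals for counting error only, and lines are group means. The points of the 2 groups do not overlap for Hand2, Prdm1 and Pkdcc, and control 2 stands above the other libraries for Shh and Scube2.

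The groups did not overlap for 3 of the 9 genes, which is 33.3%, close to the 32.6% of all genes tested. Hand2 and Prdm1 lay lower in both cyclopamine libraries than in both controls, as did 15.8% of all genes. Pkdcc lay higher in both, as did 16.8%. These 3 were also the genes whose group means differed by more than the replicates of either group differed from each other. For Prdm1 (1.155-fold between groups, 1.148-fold between controls) and Pkdcc (1.090-fold between groups, 1.083-fold between controls) the margin was narrow. For Hand2 the means differed 1.44-fold, against 1.16-fold between the cyclopamine libraries. The share of all genes with such a difference was not counted. Replicates differed by more than counting error in the control group for 6 of the 9 genes, and in the cyclopamine group for 5. This was judged by an exact binomial 95% interval of the ratio of the 2 libraries. The shares of all genes were not counted here either. With 1539 and 1996 reads in control, Pkdcc was among the 6 at a ratio of only 1.08 (95% interval 1.01 to 1.16). Such intervals cover counting error only, since the reads carry no molecular identifiers and several may come from a single molecule.

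Shh lies on chromosome 5 of mm10, from 28456815 to 28467256 on the minus strand. It had 77 and 99 reads with cyclopamine, against 76 and 197 reads in control. This is 6.07 and 8.02 CPM with cyclopamine, against 7.84 and 14.5 CPM in control. Control 2 was the high library, and control 1 lay between the cyclopamine libraries, so the groups overlapped. The 2 controls differed from each other by 1.85-fold (95% interval 1.41 to 2.44, counting error only), which is more than the 1.58-fold between the group means. Of 2997 genes whose mean level lay within 2-fold of that of Shh, 5.44% had controls at least as far apart, in either direction. The log2 fold change of Shh was -0.58 (SE 0.29, 95% interval -1.20 to 0.05, limma adjusted p = 0.885). It was -0.16 without control 2 and -1.0 without control 1, with adjusted p of 0.999 and 0.21. Exons of Shh share 807 bases with annotated genes on the opposite strand. The labels do not state whether counting used the strand, so reads of the 2 strands cannot be told apart.

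The other Hedgehog ligand genes stayed under the floor. Ihh had 1 and 0 reads with cyclopamine, against 1 and 0 in control. Dhh had 2 and 2 reads with cyclopamine, against 1 and 0 in control. Neither reached 3 reads in any library, so Shh was the Hedgehog ligand gene detected in these forelimbs.

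Hhat encodes the acyltransferase that puts palmitate on the Hedgehog ligand, and lies on chromosome 1 at 192496711 to 192771223. It measured 11.0 and 7.54 CPM with cyclopamine, against 8.67 and 9.92 CPM in control. The highest and the lowest library were both from the cyclopamine group. Its log2 fold change was -0.03 (SE 0.26, 95% interval -0.57 to 0.52, adjusted p = 1.0 in limma).

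Disp1, also on chromosome 1 at 183086266 to 183221522, encodes the membrane exporter of the lipid-bearing ligand. It measured 53.8 and 63.0 CPM with cyclopamine, against 61.4 and 69.6 CPM in control. The groups overlapped, with cyclopamine 2 above control 1. Its log2 fold change was -0.16 (SE 0.16, 95% interval -0.50 to 0.17, limma adjusted p = 1.0).

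Scube2, on chromosome 7 at 109798676 to 109865679, encodes a secreted protein that helps to release the ligand from the cell surface. It had 6 and 5 reads with cyclopamine, against 4 and 40 reads in control. That is 0.473 and 0.405 CPM with cyclopamine, against 0.413 and 2.94 CPM in control. Control 2 alone stood clear of the other 3 libraries, 7.12-fold above control 1 (95% interval 2.57 to 27.4, counting error only). Scube2 reached the filter of a mean of 1 CPM through that library, at a mean of 1.06 CPM. Its log2 fold change was -0.92 (SE 0.59, 95% interval -2.18 to 0.34, limma adjusted p = 0.977), and -1.97 in edgeR on reads (adjusted p = 0.747). Without control 2 it lay under the filter and was not tested, and without control 1 the log2 fold change was -1.87 (adjusted p = 0.242).

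**Figure D2:**
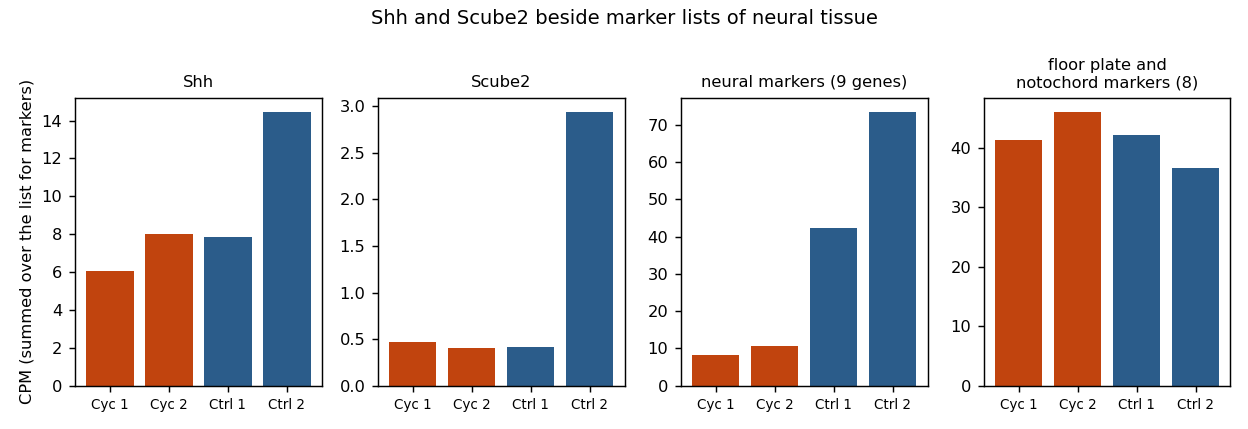
Bars give, for each library, the CPM of Shh, the CPM of Scube2, and the summed CPM of 9 neural tube and neuron markers and of 8 floor plate and notochord markers. Cyclopamine 1 and 2 are at the left and control 1 and 2 at the right of each panel, with no error bars. Shh, Scube2 and the neural sum were highest in control 2, and the floor plate and notochord sum was lowest there.

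Shh is also made by the floor plate of the neural tube and by the notochord, so their markers were set beside it. Neural markers were highest in control 2 at 73.5 CPM in sum, the library in which Shh and Scube2 were highest. In control 1 the neural sum, 42.4 CPM, was also above the 8.20 and 10.8 CPM with cyclopamine. Shh (7.84 CPM) and Scube2 (0.413 CPM) in control 1 instead lay between their values in the cyclopamine libraries. All 8 neural markers tested lay below control, and 6 of them fell (Zic1, Elavl3, Tubb3, Stmn2, Ina and Myt1). Without control 2, Zic1 and Elavl3 lost their calls (limma adjusted p of 0.14 and 0.208), and Ina and Myt1 lay under the filter. Zic1 also lost its call in edgeR (adjusted p = 0.0912), in DESeq2 (1.0) and in limma with robust hyperparameters (0.847). Floor plate and notochord markers summed to 41.3 and 46.1 CPM with cyclopamine, against 42.1 and 36.6 CPM in control. That sum came mostly from Ntn1 and Spon1. Foxa2, a defining gene of the floor plate, had 3 and 8 reads with cyclopamine, against 6 and 2 in control. Nkx2-2 had 0 and 2 reads with cyclopamine, against 1 and 0 in control. The part of neural tissue in the values of Shh and Scube2 was not tested.

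Among 10 further genes of ligand production and release, 6 were tested and 0 passed the threshold, with a median log2 fold change of 0.05. The lowest p belonged to Scube1, which encodes a relative of SCUBE2. It measured 130 and 166 CPM with cyclopamine, against 201 and 249 CPM in control. Both cyclopamine libraries lay below both controls, at a log2 fold change of -0.61 (SE 0.17, 95% interval -0.96 to -0.25, limma adjusted p = 0.289). Without cyclopamine 2 it passed (log2 fold change -0.78, adjusted p = 0.0268). Scube3, the remaining family member, measured 46.2 and 47.9 CPM with cyclopamine, against 43.7 and 37.7 CPM in control (limma adjusted p = 1.0). Gpc3, a glypican that binds Hedgehog at the cell surface, measured between 1367 and 1535 CPM in the 4 libraries.

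Hand2 had the smallest p of the 9 genes. It lies on chromosome 8 at 57320983 to 57324633, on the plus strand. It had 878 and 740 reads with cyclopamine, against 873 and 1307 in control. This is 69.3 and 60.0 CPM with cyclopamine, against 90.1 and 96.0 CPM in control, so every cyclopamine value lay below every control value. The group means were 64.6 ± 6.58 CPM with cyclopamine and 93.0 ± 4.21 CPM in control (SD, n = 2 each). The log2 fold change was -0.53 (SE 0.15, 95% interval -0.85 to -0.20), with an unadjusted p = 0.0034 that ranked 139 of the 13568 genes in limma. After adjustment over all genes it did not pass (adjusted p = 0.332). The adjusted p was 0.328 in edgeR and 0.365 in DESeq2, and the false discovery rate in the authors' deposited table is 0.211. An exact permutation of the labels of 2 against 2 libraries cannot give a two-sided p under 0.333. Limb mesenchyme markers had a median log2 fold change of 0.11 (8 tested, 0 past the threshold). Of these, 6 lay above 0 and 2 below, and Fgf10 was lowest at -0.60. Exons of Hand2 share 461 bases with Hand2os1, an annotated gene on the opposite strand.

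The sequence before the start of Hand2 is shown because Hand2 had the smallest p and because its protein binds E-boxes. The window is chr8:57320733-57320982 of GRCm38 (mm10), plus strand, from RefSeq, and it holds the 250 bases before the annotated start. Capitals mark CATCTG, an E-box of the kind bound by HAND2, which begins 246 bases before the start.
Hand2: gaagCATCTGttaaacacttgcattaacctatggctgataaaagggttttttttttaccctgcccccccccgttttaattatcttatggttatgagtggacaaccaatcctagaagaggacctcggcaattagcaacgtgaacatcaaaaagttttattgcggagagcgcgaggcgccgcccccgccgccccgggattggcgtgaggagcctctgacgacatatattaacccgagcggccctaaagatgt
Promoter windows, from 250 bases before to 50 after a start, matched 7 of the 9 genes in RefSeq, in 13 windows, and not Shh or Osr1. The E-box CATCTG, read on both strands, was in 2 of these windows, that of Hand2 and 1 of Cntfr, against 17.2% of 32851 windows of the same length. Some windows of Cntfr overlap, so windows are not separate units. By gene, the E-box was in 2 of 7, against 19.2% of 27025 genes. The GLI site GACCACCCA, read on both strands, was in 0 of the 13 windows, against 0.253% of all windows. A match is a description of letters, and a window without one says nothing of binding.

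Genes known to regulate Shh in the limb, together with Lmbr1, were set beside Hand2. Of these 21 genes, all tested, 3 fell and 0 rose, with a median log2 fold change of 0.03. The 3 were Hoxd11 (-0.92, SE 0.18), Hoxd12 (-1.38, SE 0.19) and Hoxd13 (-1.11, SE 0.19), homeobox genes of the posterior and distal bud. Their limma adjusted p were 0.0454, 0.00394 and 0.0189. Hoxd11 lost its call in edgeR (adjusted p = 0.0728), without control 1 (0.124), without cyclopamine 2 (0.148), with scaling to the plain library total (0.0733) and with a filter of a mean of 5 CPM (0.0503). Lmbr1, the gene whose intron houses the limb enhancer of Shh, measured 14.1 and 15.5 CPM with cyclopamine, against 13.0 and 18.2 CPM in control. Of 6 basic helix-loop-helix partners and relatives of Hand2, 0 passed. The lowest p there was that of Hand1, with 3.71 and 3.65 CPM with cyclopamine, against 2.68 and 0.955 CPM in control (log2 fold change 0.96, SE 0.41, limma adjusted p = 0.793).

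Genes of the loop that joins SHH to the ridge were set beside the ligand gene. All 8 tested genes of the loop, of 9 listed, had log2 fold changes below 0, with a median of -0.54, and 3 of them fell. These were Fgf4 (-3.15, SE 0.40) and Fgf8 (-1.64, SE 0.20), growth factors of the ridge, and Grem1 (-0.88, SE 0.17), with a largest limma adjusted p = 0.0434. Grem1 kept its call in the fit without cyclopamine 2 but lost it without control 1, control 2 or cyclopamine 1 (largest adjusted p = 0.144), and with scaling to the plain library total (0.0775). Fgf10, a mesenchymal growth factor that maintains the ridge, measured 46.0 and 39.7 CPM with cyclopamine, against 68.0 and 62.2 CPM in control (-0.60, SE 0.16, limma adjusted p = 0.255).

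**Figure D3:**
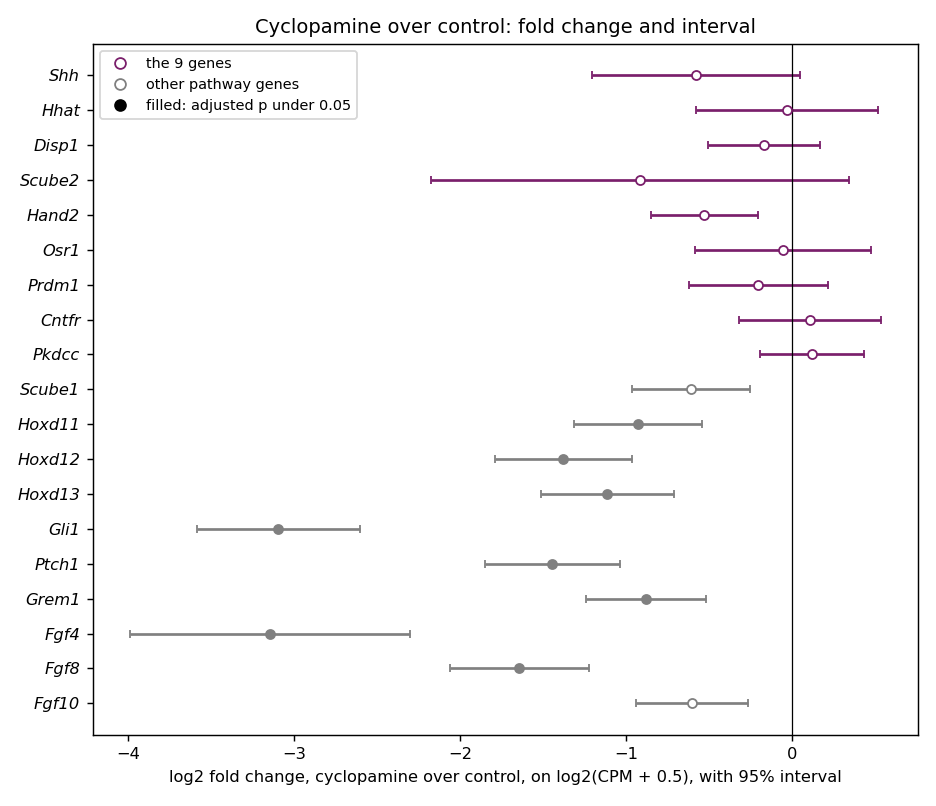
Log2 fold change of cyclopamine over control on the log2(CPM + 0.5) scale, with 95% intervals from limma (n = 2 libraries each), for the 9 genes in purple and other pathway genes in grey. Filled points passed an adjusted p of 0.05 over all genes tested. None of the 9 is filled, and of the 9 the interval of Hand2 alone lies wholly below 0.

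Osr1 encodes an odd-skipped zinc finger factor of lateral plate and intermediate mesoderm, at chromosome 12, 9570116 to 9581500. It measured 15.1 and 16.9 CPM with cyclopamine, against 22.1 and 12.3 CPM in control. The controls were the highest and the lowest library, 1.79-fold apart (95% interval 1.45 to 2.20, counting error only), with both cyclopamine libraries between them. Its log2 fold change was -0.05 (SE 0.25, 95% interval -0.58 to 0.48, limma adjusted p = 1.0), and it was 0.36 without control 1 and -0.46 without control 2. Markers of intermediate mesoderm summed to 56.6 and 49.3 CPM with cyclopamine, against 55.7 and 54.4 CPM in control. That sum came mostly from Emx2, Wt1 and Gata3. The other listed markers had few reads and did not move together. Pax2 had 0 and 0 reads with cyclopamine, against 7 and 6 in control. Lhx1 had 1 and 4 reads with cyclopamine, against 14 and 21 in control. Pax8 had 13 and 1 reads with cyclopamine, against 6 and 6 in control. The part of intermediate mesoderm in the values of Osr1 was not tested.

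Prdm1 encodes the transcriptional repressor BLIMP1, which the posterior forelimb of the mouse needs, and lies on chromosome 10 at 44437177 to 44528501. It measured 16.9 and 19.0 CPM with cyclopamine, against 22.2 and 19.3 CPM in control. The groups did not overlap, but cyclopamine 2 and control 2 lay close together. The log2 fold change was -0.20 (SE 0.20, 95% interval -0.62 to 0.22, limma adjusted p = 1.0). Among 12 odd-skipped and PRDM family relatives, 8 were tested and 0 passed, with a median log2 fold change of -0.04. The smallest p was that of Prdm6 (-0.53, SE 0.37, limma adjusted p = 0.995).

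Cntfr encodes the ligand-binding subunit of the receptor for ciliary neurotrophic factor, which signals through LIFR, gp130 (Il6st) and STAT3. It lies on chromosome 4 at 41657498 to 41697089. It measured 43.8 and 33.8 CPM with cyclopamine, against 42.9 and 29.5 CPM in control. In each group the library numbered 1 was the higher, and the groups overlapped almost fully. The log2 fold change was 0.11 (SE 0.20, 95% interval -0.32 to 0.54, limma adjusted p = 1.0), and it was 0.38 without control 1 and -0.16 without control 2. Of 12 genes for its ligands and signal chain, 10 were tested, 7 lay above 0 and 0 passed, with a median of 0.10. Stat3 had the smallest p of these, with 123 and 151 CPM with cyclopamine, against 88.9 and 99.9 CPM in control (0.53, SE 0.16, limma adjusted p = 0.356).

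Pkdcc encodes a secreted protein kinase that the growing limb skeleton of the mouse needs, and lies on chromosome 17 at 83215292 to 83225070. It measured 160.0 and 173 CPM with cyclopamine, against 159 and 147 CPM in control. Both cyclopamine libraries lay above both controls, with cyclopamine 1 only slightly above control 1. The log2 fold change was 0.12 (SE 0.15, 95% interval -0.19 to 0.44, limma adjusted p = 1.0). Of 5 related secreted kinase genes 3 were tested and 0 passed, and the smallest p was that of Fam20b (-0.08, SE 0.15, limma adjusted p = 1.0).

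The intervals bound what these libraries could show. For 7 of the 9 genes the 95% interval left out a 2-fold decrease, and the exceptions were Shh and Scube2. For all 9 it left out a 2-fold increase on the log2(CPM + 0.5) scale. The shares of all genes tested with such intervals were not counted, so these counts do not set the 9 genes apart.

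**Figure D4:**
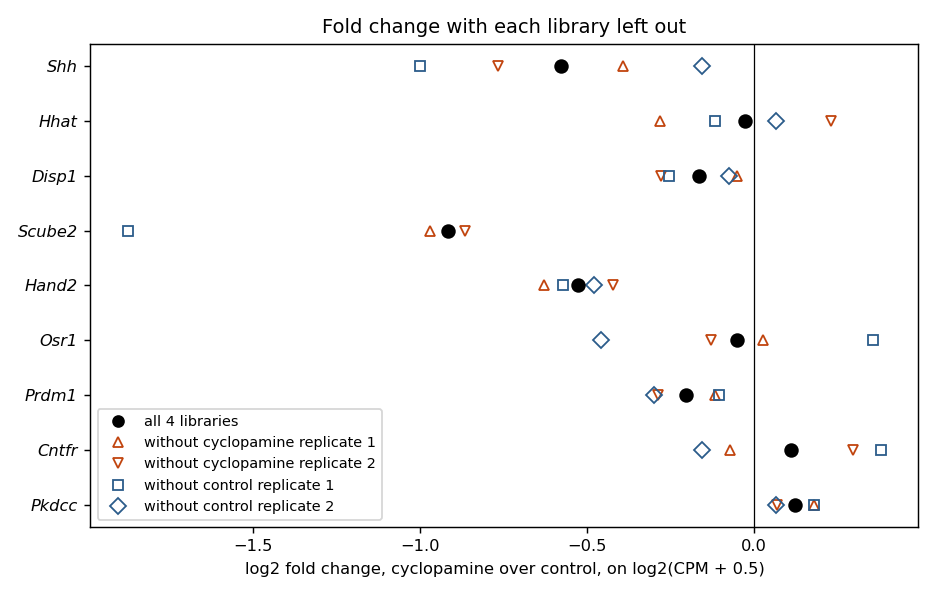
Log2 fold change of cyclopamine over control for the 9 genes with all 4 libraries (black points) and with each library left out in turn (open symbols). Shh runs from -1.0 to -0.16, Hhat, Osr1 and Cntfr cross 0, and Hand2 stays between -0.63 and -0.42. Scube2 has no point without control 2, where it lay under the filter.

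Levels were compared between genes as CPM per kilobase of annotated exon, with the exons of all annotated transcripts of a gene merged. The order depends on that length, which need not be that of the transcript expressed. Hhat has 9.15 kb and Shh 2.85 kb, at mean levels of 9.27 and 9.10 CPM. Pkdcc was highest, at 61.4 ± 3.35 with cyclopamine and 56.3 ± 3.17 in control (SD, n = 2 each, CPM per kb). Hand2 followed at 27.5 ± 2.80 with cyclopamine and 39.6 ± 1.79 in control. Cntfr (13.9 ± 2.54 with cyclopamine, 13.0 ± 3.42 in control) and Disp1 (11.2 ± 1.25 with cyclopamine, 12.5 ± 1.11 in control) overlapped over the 4 libraries. Osr1 came next, at 7.73 ± 0.611 with cyclopamine and 8.33 ± 3.33 in control. Prdm1 (3.22 ± 0.274 with cyclopamine, 3.72 ± 0.363 in control) and Shh (2.48 ± 0.484 with cyclopamine, 3.92 ± 1.65 in control) overlapped. Hhat stood at 1.01 ± 0.265 with cyclopamine and 1.02 ± 0.0967 in control, and Scube2 was lowest in all 4 libraries. Disp1 and Osr1 also overlapped over the 4 libraries, although not within either group. The order was the same in cyclopamine 1, cyclopamine 2 and control 1, and in control 2 Cntfr changed places with Disp1 and Prdm1 with Shh.

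**Figure D5:**
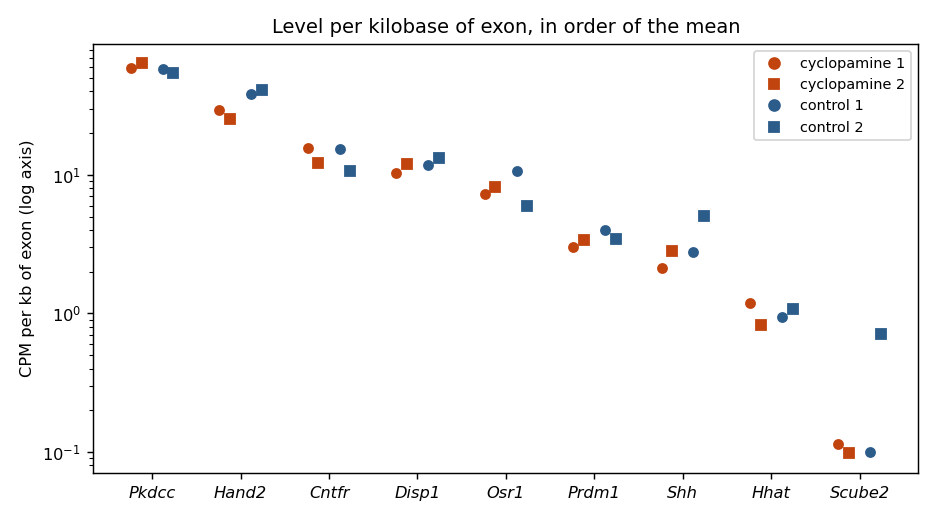
Level of each gene in CPM per kilobase of exon on a log axis, in order of the mean over the 4 libraries. Colours give the group and shapes the replicate number. Pkdcc is highest and Scube2 lowest in all 4 libraries, and Shh is seventh by its mean.

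The genes whose profile over the 4 libraries lay nearest to that of Shh were D10Bwg1379e, Gja3 and Dnase1. Likeness was measured as the Euclidean distance between log2(CPM + 0.5) profiles, each centred on its mean, among 12732 named genes. The 3 distances were 0.12, 0.12 and 0.14. Gja3, a connexin gene, measured 3.31 and 4.78 CPM with cyclopamine, against 4.75 and 8.01 CPM in control, with control 2 highest as for Shh. Of the other 8 genes, Disp1 was nearest to Shh, at a distance of 0.63 and rank 1083, followed by Hand2 at 0.67 and rank 1512. Osr1 and Cntfr were farthest, at 1.29 and 1.31. With 4 libraries these distances describe the libraries and carry no test.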

How the data were processed

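RNA was taken with TRIzol from limb buds after culture and sequenced on the SOLiD platform, per the labels' protocols. The submitters' processing notes name the mm10 build, edgeR 3.4.2, HTSeq 0.5.4p5, TopHat2 2.0.9, SAMtools and Bowtie, without saying what each did. The labels state neither the annotation nor whether strand was used. The deposited signal is a normalized level per gene and library, counts per 1000000 of an effective library size. Every value was a whole multiple of a single read's worth in its library (100% of values, within 0.01 of a whole read), so reads were recovered. A second deposited table holds the authors' own log2 fold change, p-value and false discovery rate for each gene, from a test that is not stated.

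Genes averaging 1 CPM or more were compared with limma 3.58.1 (R 4.3.3), using log2(CPM + 0.5), an intensity trend and no covariates, two-sided, with Benjamini-Hochberg adjustment over all genes tested. This scale understates changes of low genes. edgeR 4.0.16 and DESeq2 1.42.0 on recovered reads, and other scalings, filters and left-out libraries, were alternatives. Coordinates and exon lengths are from GENCODE vM21 on GRCm38. The members, gene lists and tests were chosen with earlier results of these data known. Beside the 9 genes, the text names listed genes past the threshold, the gene of smallest p in a list, and the 3 profiles nearest to Shh; a gene that this rule covers is not reported here. The following marker genes, and genes named to fill out a list, were chosen after their values were seen. They are Hhip, Scube3, Gpc3, Lmbr1, Ihh, Dhh, Foxa2, Nkx2-2, Pax2, Lhx1, Pax8, Wt1, Gata3, Ntn1, Spon1, Prrx1, Tbx5, Krt5 and Trp63.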

Additional observations from a re-analysis of the deposited data

How the results depend on the processing

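The count of the 9 genes past the threshold was 0 under 14 of 15 alternatives and 1, Hand2 (adjusted p = 0.00389), in limma with a replicate block. The replicate numbers are tied to no litter or day, and the deviations of same-numbered libraries had a correlation of 0.27 over genes. The block also raised the count over all genes to 351 (2.59%), against 38 without it, and it brought calls for Scube1 (adjusted p = 2.96e-05), Stat3 (0.00147) and Fgf10 (0.0016). That count was 2 with no expression filter, 0 with the trend left out of limma (unadjusted p under 0.05 for 837 genes) and 20 with scaling to the plain library total, and ran from 43 to 122 with a library left out. Of the listed genes that passed, Gli1 alone kept its call with no filter, and none did without the trend. Scaling to the plain library total also ended the calls of Zic1 (adjusted p = 0.0738), Ina (0.0775) and Myt1 (0.0744), as did log2(CPM + 0.1) for Zic1 (0.076) and log2(CPM + 1) for Ina (0.0628). The causes were not tested. Signs turned, with no call in either direction, when a library was left out for Osr1 (from -0.46 without control 2 to 0.36 without control 1), Hhat (from -0.28 without cyclopamine 1 to 0.23 without cyclopamine 2) and Cntfr (from -0.16 without control 2 to 0.38 without control 1). Osr1 also turned without cyclopamine 1 (0.027), Hhat without control 2 (0.066) and Cntfr without cyclopamine 1 (-0.073). Among named markers they turned for Emx2 (range -0.17 to 0.092), Tek (-0.015 to 0.84) and Cx3cr1 (-0.025 to 0.42). Shh, Disp1, Scube2, Hand2, Prdm1 and Pkdcc kept their sign under every alternative that tested them, and no scaling moved the median of all genes by more than 0.1. Depth limits Scube2, Ihh, Dhh and Foxa2, which rest on few reads.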

Other observations

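Cntfr shared a pattern with ectoderm markers that crossed the groups. Summed over 8 ectoderm genes, the level was 448 CPM in cyclopamine 1 and 328 CPM in cyclopamine 2, against 410 CPM in control 1 and 314 CPM in control 2. In each group the library numbered 1 was the higher, as it was for Cntfr. Krt5, a keratin of basal epithelium, measured 118 and 73.1 CPM with cyclopamine, against 111 and 68.2 CPM in control. Trp63, a transcription factor of the same layer, did not share the pattern, with 64.8 and 68.6 CPM with cyclopamine, against 59.5 and 67.1 CPM in control. None of the 8 ectoderm genes passed the threshold (0 of 8, limma, adjusted p of 0.05; 1 at an unadjusted p under 0.05). The part of ectoderm in the values of Cntfr was not tested.

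In the marker lists of other cell types that held no called gene, the smallest p belonged to T of the notochord (log2 fold change -0.44, SE 0.47, limma adjusted p = 1.0), Perp of the ectoderm (0.49, SE 0.21, adjusted p = 0.802), Myod1 of muscle precursors (0.69, SE 0.48, adjusted p = 0.991), Tek of endothelium (0.41, SE 0.27, adjusted p = 0.977), Cx3cr1 of macrophages (0.20, SE 0.31, adjusted p = 1.0) and Emx2 of intermediate mesoderm (-0.04, SE 0.18, adjusted p = 1.0).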
